A study of Mus musculus with 12 samples.

Results

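The Trbv genes are the variable segments of the T cell receptor beta chain. They were taken here as all genes whose symbol starts with Trbv, which gave 35 of the 51826 genes in the files, of which 22 are annotated as functional (TR_V_gene) and 13 as pseudogenes. The 9 tumor libraries came from T cell acute lymphoblastic leukemia tumors, with thymus as the tissue, in mice of strain F5 with tetracycline-inducible IL-7Rα, a chain of the receptor for the thymocyte growth factor IL-7, and their titles mark the gene as induced with Dox. The 3 control libraries came from thymus of healthy mice of the same strain F5, with the genotype given as control. The sources used here do not give the promoter behind the inducible gene, the age of the mice, whether they could rearrange their own receptor genes (Rag status), or whether each library is a separate animal, so p-values measure the spread between libraries, which may be technical.

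A developing T cell builds its beta chain by joining one Trbv segment to a D and a J segment in front of a constant gene, Trbc1 or Trbc2. A thymus with free choice of segments therefore holds many of them, while descendants of one cell share the same one. A mouse with a beta chain transgene carries a joined chain from the start, which restrains joining of its own segments by allelic exclusion. F5 is the name of a receptor transgenic line whose receptor pairs V beta 11 with V alpha 4. The RefSeq gene table gives Tcrb-V11 as the older name of Trbv16. The labels give F5 only as the strain and do not mention a receptor transgene, and reads of a transgene and of the mouse's own Trbv16 cannot be told apart in these files.

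The ends of the 4 segments that took 10% or more of the Trbv counts in any library are shown because this side of the segment is joined to the D segment. Each is the last 60 coding bases of the segment from GENCODE M21 transcripts (mm10, plus strand of chromosome 6), with capitals from the last in-frame cysteine codon, where the antigen-contacting CDR3 loop begins.
Trbv16: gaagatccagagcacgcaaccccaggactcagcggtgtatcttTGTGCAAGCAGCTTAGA
Trbv13-2: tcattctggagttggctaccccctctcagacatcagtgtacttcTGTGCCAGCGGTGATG
Trbv19: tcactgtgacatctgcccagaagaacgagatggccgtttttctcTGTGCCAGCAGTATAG
Trbv12-2: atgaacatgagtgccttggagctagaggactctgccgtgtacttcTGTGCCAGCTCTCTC
These ends lie at chr6:41152171-41152230 for Trbv16, chr6:41121773-41121832 for Trbv13-2, chr6:41178989-41179048 for Trbv19 and chr6:41119305-41119364 for Trbv12-2. The older names in the RefSeq table are V beta 8.2 for Trbv13-2, V beta 6 for Trbv19 and V beta 5.1 for Trbv12-2. Trbv16 and Trbv19 share no 31-base word with any other gene in the files. For Trbv13-2, 34 of 310 words occur in Trbv13-1 or Trbv13-3, and for Trbv12-2, 37 of 355 occur in Trbv12-1 or Trbv12-3. Trbv4 and Trbv5 share 73.6% and 78.7% of their words with the gene 5830405F06Rik, so their counts are uncertain.

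Few reads fell on these genes. Trbv counts, which are the authors' kallisto estimated counts summed per gene, numbered 128 to 973 per tumor library and 259 to 347 per control library, out of totals of 11617724 to 34769946 and 8133152 to 12019924. A single count thus stood for 0.103% to 0.781% of the Trbv counts in a tumor and 0.288% to 0.386% in a control. The libraries also differed in counts on olfactory and vomeronasal receptor genes, which serve smell and are used here as a measure of background. The median of 1904 such genes was 0 to 3.90 counts per kilobase of effective length in tumors 1-6 and 12.8 to 22.6 in tumors 7-9, against 19.1 to 20.97 in the controls. The summed level of 10 T cell markers was 1473 to 2051 CPM (counts scaled to library size) in tumors 1-6 and 53.7 to 118 CPM in tumors 7-9, against 47.1 to 95.2 CPM in the controls. The 10 markers were Cd3d, Cd3e, Cd3g, Cd247, Thy1, Cd5, Lck, Trac, Trbc1 and Trbc2, and none was at 0 in any library. CPM values here use trimmed mean of M-values (TMM) factors. Tumors 7 to 9 lay closer to the controls than to the other tumors on both measures, so the main results are also given for tumors 1-6 and 7 to 9 apart, a split made with these values known. The summed level of 4 macrophage genes was 12.04 to 60.4 CPM in tumors 1-6 and 10.1 to 12.2 CPM in tumors 7-9, against 10.5 to 11.98 CPM in the controls, with none at 0. Of 4 gamma delta T cell genes listed, 1 was found in the files, at 0.616 to 133 CPM in tumors 1-6 and 0.694 to 4.86 CPM in tumors 7-9, against 3.68 to 4.94 CPM in the controls. The summed level of 4 thymic epithelium genes was 0.573 to 11.1 CPM in tumors 1-6 and 4.74 to 9.82 CPM in tumors 7-9, against 7.21 to 8.59 CPM in the controls, and Krt8 and Krt5 were at 0 in at least 1 library. For 3 NK cell genes, each at 0 in at least 1 library, it was 0.127 to 6.27 CPM and 2.41 to 4.45 CPM in these sets of tumors, against 3.61 to 4.73 CPM in the controls. The part of these cells and of the background in the results was not tested, and in bulk libraries fewer cells of a type and less RNA per cell cannot be told apart.

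The first comparison asked how much of the Trbv signal the F5 segment held. Trbv16 (ENSMUSG00000076473, chromosome 6, 41151740 to 41152230, plus strand) was the largest segment in 6 of the 9 tumors and in all 3 controls. Its share of the Trbv counts was 25.3%, 64.6%, 82.8%, 3.01%, 93.2%, 61.2%, 16.6%, 17.7% and 23.8% in tumors 1 to 9, against 25.1%, 30.8% and 25.9% in controls 1 to 3. Tumors 2, 3, 5 and 6 lay above every control, tumors 4, 7, 8 and 9 below every control, and tumor 1 within the range of the controls. The counts behind these shares were 81, 124, 106, 18, 275, 595, 27, 32 and 84 in the tumors and 65, 107 and 79 in the controls.

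The share averaged 43.1% ± 32.6 in the tumors (SD, n = 9) and 27.3% ± 3.10 in the controls (SD, n = 3). The difference of 15.9 percentage points did not exceed the spread between libraries (two-sided exact permutation test over 220 splits, p = 0.45, where the smallest possible p is 0.00455). The difference had opposite signs in the 2 sets of tumors, and neither passed the test. In tumors 1-6 the share was 27.7 percentage points above the controls (exact permutation p = 0.202), and in tumors 7-9 the difference was -7.90 points (exact permutation p = 0.1, the smallest that 3 libraries against 3 can give). The 95% Wilson intervals, which cover counting error only, ran from 89.8% to 95.6% in tumor 5 and from 1.92% to 4.72% in tumor 4. Between the lowest of tumors 7-9 and the highest control they did not meet, at 11.7% to 23.2% in tumor 7 and 26.2% to 35.9% in control 2. Those of tumor 9, 19.6% to 28.4%, overlapped the intervals of all 3 controls.

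**Figure D1:**
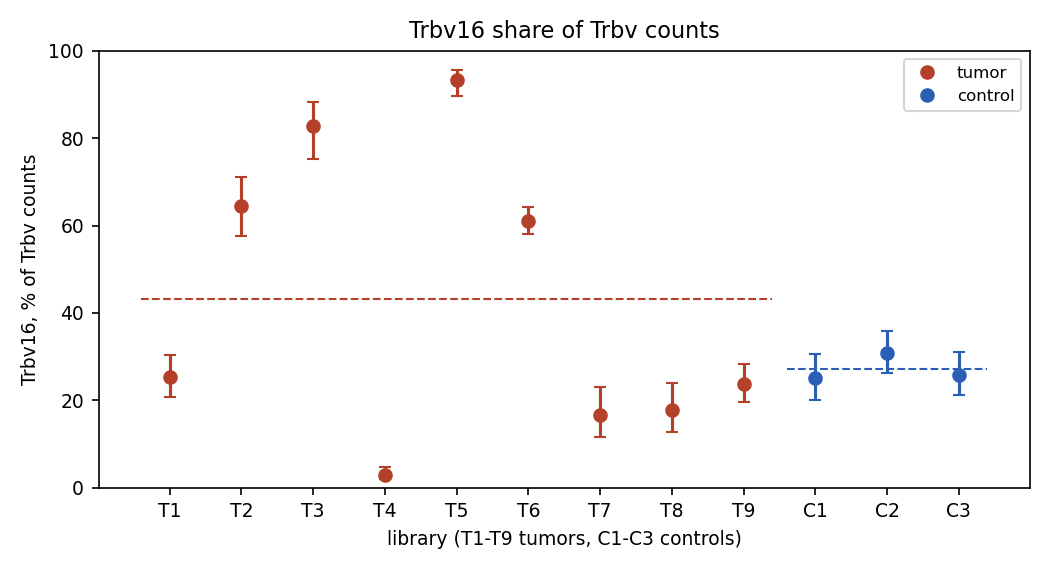
Trbv16 as a percentage of all Trbv counts (vertical axis) in each library (horizontal axis, T for tumors and C for controls); points are libraries, bars are 95% Wilson intervals for counting error, and dashed lines are group means. Tumors range from 3.01% to 93.2%, while the 3 controls lie between 25.1% and 30.8%.

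The second comparison set Trbv16 against the other segments within each library. Per kilobase of effective length, Trbv16 held 81.7 to 2550 counts in tumors 1-6 and 115 to 330 in tumors 7-9, against 278 to 471 in the controls. The median of the 34 other segments was 0 to 7.10 counts per kilobase in tumors 1-6 and 13.5 to 35.9 in tumors 7-9, against 29.6 to 38.0 in the controls. With 0.5 counts added to each segment, Trbv16 stood at 10.8 to 481 times the median of the other functional segments in tumors 1-6 and at 5.55 to 8.96 times in tumors 7-9, against 9.66 to 12.7 times in the controls. In tumors 3 and 5 the typical other segment had 0 counts, so the size of those ratios rests on the added 0.5 counts. On the log2 scale the ratio averaged 5.34 ± 2.38 (SD, n = 9) in the tumors and 3.44 ± 0.20 (SD, n = 3) in the controls. It was above 0 in 9 of 9 tumors (two-sided exact sign-flip permutation test, p = 0.00391, the smallest possible) and in 3 of 3 controls (exact permutation p = 0.25, also the smallest possible). This test was added after the values were seen. The median other segment had only 0 to 1 counts in tumors 1-6, and no other segment was tested in this way. The test therefore does not show that Trbv16 alone stands above that median.

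At the median receptor gene density, a gene of the length of Trbv16 would have had 3.01, 3.49 and 5.74 counts in tumors 7 to 9, against 4.90, 4.71 and 4.39 in controls 1 to 3. Trbv16 was at 8.96, 9.17 and 14.6 times these counts in tumors 7 to 9, against 13.3, 22.7 and 18.0 times in controls 1 to 3. The other 34 segments together were at 1.48 to 1.62 times that density in tumors 7-9 and at 1.38 to 1.80 times in the controls. In these libraries Trbv16 thus lay well above the receptor gene density, and the 34 other segments were in sum at less than 2 times that density. A single other segment could lie higher. Trbv13-2 was at 4.84, 16.6 and 1.78 times in tumors 7 to 9, against 1.07, 3.62 and 2.09 times in controls 1 to 3. In tumor 8 it thus lay above Trbv16. In tumors 1 to 4 Trbv16 was at 93.6, 185, 481 and 60.7 times the background, which was 0.221 to 0.865 counts for a gene of its length. In tumors 5 and 6 the median receptor gene had 0 counts, so no ratio was formed.

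When the receptor gene density was taken off every segment, the share of Trbv16 became 24.8%, 25.8% and 41.7% in tumors 7-9, against 45.2%, 47.8% and 41.6% in controls 1 to 3. Tumor 9 then lay just above control 3, so that tumors 7-9 and the controls overlapped. In tumors 1 to 6 the share became 26.6%, 69.6%, 84.1%, 2.99%, 93.2% and 61.2%. Tumor 1, within the range of the controls before, then lay below every control. Over all tumors the difference to the controls was then 2.90 percentage points (exact permutation p = 0.877).

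**Figure D2:**
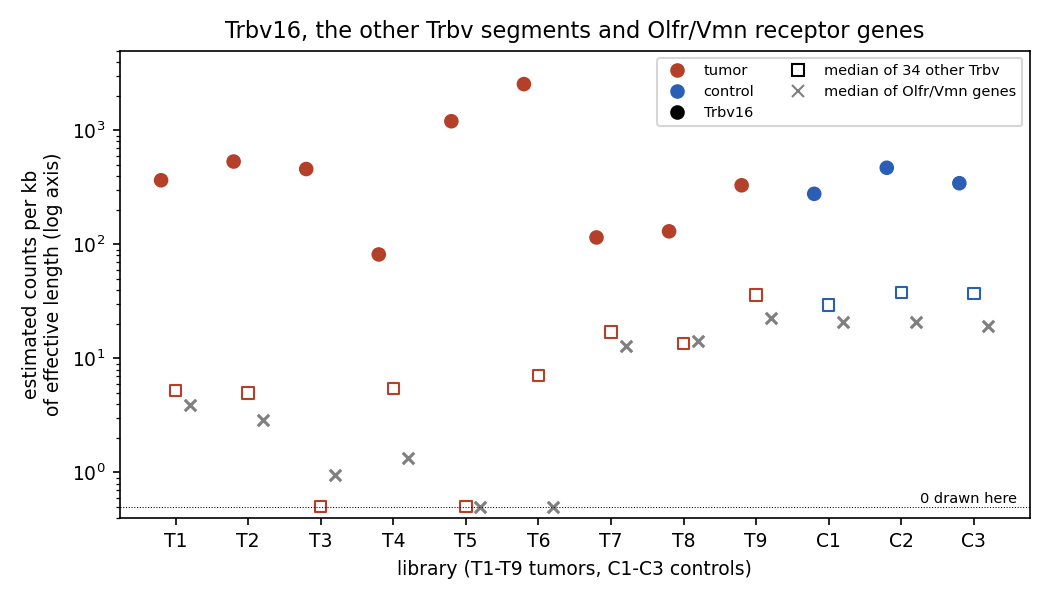
Estimated counts per kilobase of effective length (vertical log axis) in each library (horizontal axis, T for tumors and C for controls) for Trbv16 (filled circles), the median of the 34 other Trbv segments (open squares) and the median of the olfactory and vomeronasal receptor genes (crosses); values of 0 are drawn on the dotted line. Trbv16 lies above both medians in all 12 libraries. The median of the other segments is 13.5 to 35.9 in tumors 7-9 and 29.6 to 38.0 in the controls. That of the receptor genes is 12.8 to 22.6 in tumors 7-9 and 19.1 to 20.97 in the controls.

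The other segments differed from tumor to tumor. Beside Trbv16, only Trbv13-2, Trbv19 and Trbv12-2 took 10% or more of the Trbv counts in any library. Trbv13-2 (ENSMUSG00000076469, chromosome 6, 41121396 to 41121832, plus strand) took 50.04%, 4.17%, 0%, 21.1%, 0%, 19.3%, 6.78%, 24.9% and 2.26% in tumors 1 to 9, against 1.55%, 3.74% and 2.16% in controls 1 to 3. It was the largest segment in tumors 1 and 8, with 160 and 45 counts, and the groups overlapped. Its 0 counts in tumors 3 and 5 allow shares of up to 2.34% and 1.02%, taken as 3 counts of the library's Trbv counts and covering counting error only.

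Trbv19 (ENSMUSG00000076475, chromosome 6, 41178375 to 41179048, plus strand) was high in a single library. It took 62.4% of the Trbv counts in tumor 4, from 373 counts, and 0% to 5.09% in the 8 other tumors, against 1.55%, 2.88% and 2.62% in controls 1 to 3. Tumor 4 was also the library with the lowest share of Trbv16, 3.01%, where it ranked behind Trbv19 and Trbv13-2. Trbv12-2 (ENSMUSG00000094525, chromosome 6, 41118851 to 41119364, plus strand), the segment next to Trbv13-2 in the locus, took 10.7% in tumor 6 and 0% to 5.63% in the others, against 3.09%, 1.44% and 2.29% in controls 1 to 3. Its 3 highest counts, 104, 18 and 17 in tumors 6, 1 and 4, fell in the tumors with the 3 highest counts of Trbv13-2, 188, 160 and 126. The 2 genes share no 31-base word.

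**Figure D3:**
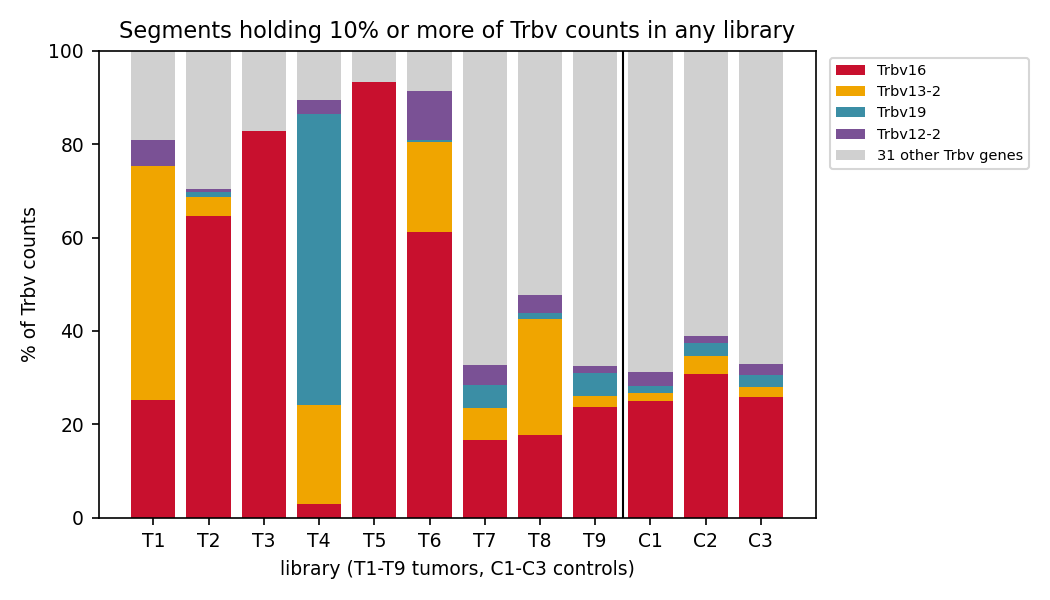
Composition of the Trbv counts (vertical axis, percent) in each library (horizontal axis, T for tumors and C for controls), with the 4 segments that took 10% or more in any library in color and the 31 others in gray. In tumor 4 Trbv19 takes 62.4%, in tumor 1 Trbv13-2 takes 50.04%, and in tumor 5 Trbv16 takes 93.2%.

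The 31 remaining segments together took 6.78% to 29.7% of the Trbv counts in tumors 1-6 and 52.4% to 67.5% in tumors 7-9, against 61.1% to 68.7% in the controls. Their medians were 0% to 0.521% in tumors 1-6 and 1.66% to 1.98% in tumors 7-9, against 1.93% to 2.02% in the controls. In tumor 5, 29 of the 31 had 0 counts, and in each control 1 did, the pseudogene Trbv8, which had at most 2.32 counts in any library. Just under the 10% line lay Trbv12-3 in tumor 7 with 9.86%, a pseudogene, and Trbv31 in tumor 5 with 6.44%. Trbv31 (V beta 14), which lies downstream of the constant genes in reverse orientation, had 2.36% to 6.44% in tumors 1, 2, 3, 5 and 6, 0.335% in tumor 4 and 1.85% to 3.39% in tumors 7-9, against 2.32% to 3.93% in the controls.

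The pseudogenes cannot give a working chain. Of the counts outside Trbv16, pseudogenes took 27.6% to 33.99% in tumors 7-9 and 30.1% to 34.1% in the controls, where their part of the effective length was 27.6% to 29.0% and 28.1% to 28.3%. In these libraries the pseudogene part of the counts was thus close to, or a little above, the pseudogene part of the length. In tumors 1, 4 and 6 pseudogenes took 10.3%, 2.30% and 3.47% of the counts outside Trbv16. They took 30.9% in tumor 2, 27.3% in tumor 3 and 0% in tumor 5, from 68, 22 and 20 counts in all. Their part of the effective length was 28.1% to 28.6% in tumors 1-6, so tumors 2 and 3 also lay close to it, on few counts. The 9 trypsin genes that lie inside the same locus were at 3.20 to 11.7 counts per kilobase in tumors 1-6 and 23.9 to 46.7 in tumors 7-9, against 36.6 to 40.1 in the controls.

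**Figure D4:**
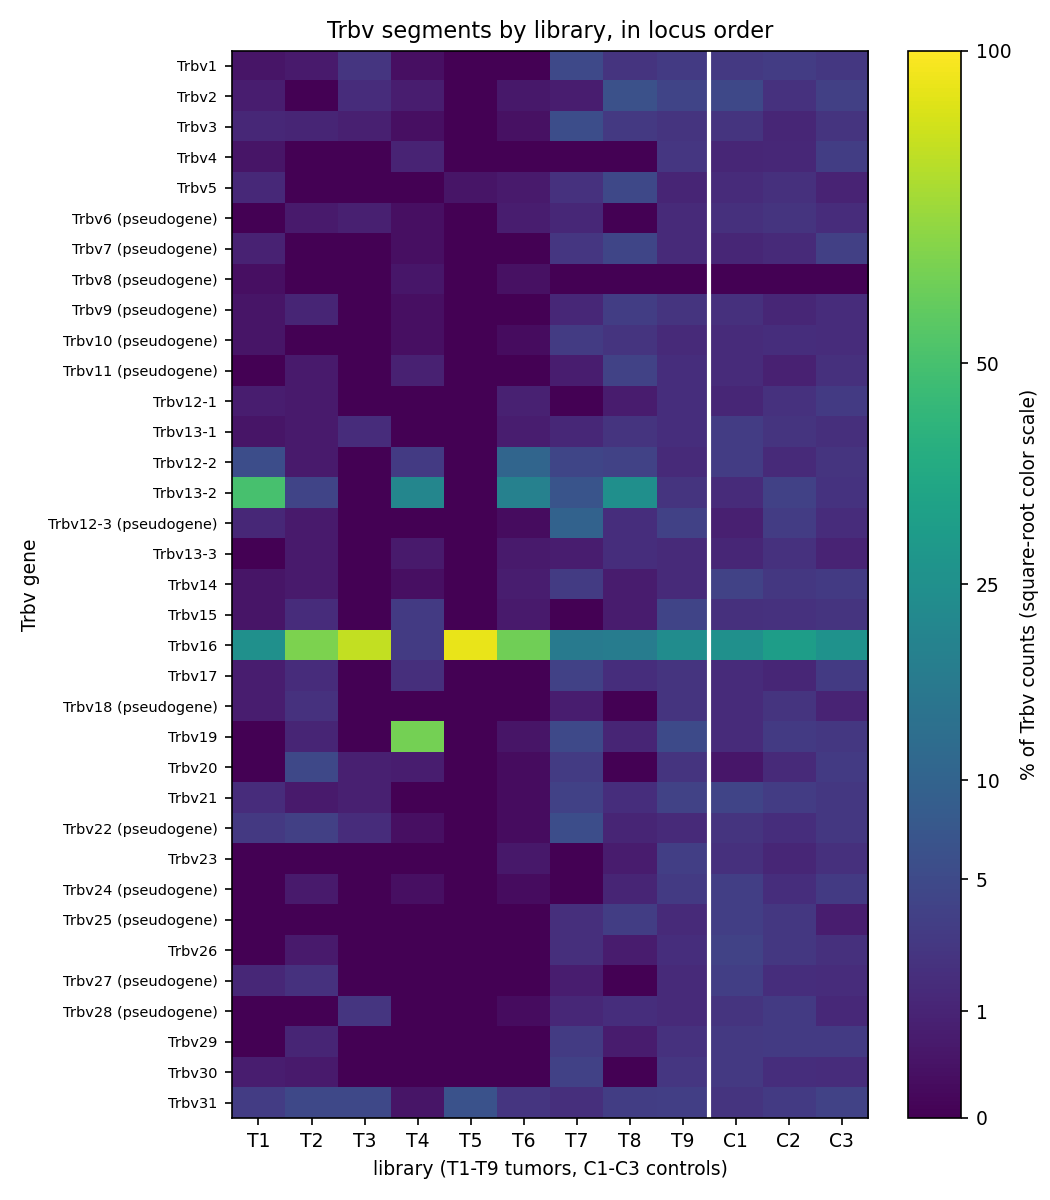
Share of each of the 35 Trbv genes (rows, in order along the locus) in the Trbv counts of each library (columns, T for tumors and C for controls), in percent on a square-root color scale. The row of Trbv16 is the lightest or second lightest in all libraries except tumor 4, Trbv13-2 stands out in tumors 1, 4, 6 and 8 and Trbv19 in tumor 4, and the remaining rows are dark, with Trbv12-3 in tumor 7 the lightest of those outside the 4 named genes.

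The last comparison tested the level of each segment in tumors against controls by edgeR's quasi-likelihood test over all 40521 genes that passed a filter on low counts, with p-values adjusted by Benjamini-Hochberg. Of the 35 Trbv genes, 19 passed the filter and none was called in either direction, where 0% of all tested genes were called higher and 0.00494% lower. At an unadjusted p below 0.05 there was 1 of the 19 segments, Trbv13-2, beside 7298 of all 40521 tested genes. DESeq2 called Trbv13-2 alone among the Trbv genes, as higher, where it called 8.22% of all genes higher and 0.118% lower. Limma on log2(TPM + 1) called 15 segments lower and none higher, where it called 79.3% of all genes lower and 0.323% higher. With library numbers as a block, edgeR called 2 segments higher, where 20.7% of all genes were called higher and 5.75% lower. The block fit compares only tumors 1 to 3 with the controls, because the other tumors share no number with a control. The median log2 fold change was -0.71 over the 19 segments and -0.45 over all tested genes.

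Trbv16 was at 8.69, 16.1, 13.1, 2.45, 10.97, 37.9, 1.56, 1.35 and 2.82 CPM in tumors 1 to 9, against 2.15, 3.89 and 3.20 CPM in controls 1 to 3. With these TMM factors, tumors 1, 2, 3, 5 and 6 were above every control and tumors 7 and 8 below every control. Only tumor 6 was above every control on the TPM scale, at 63.3 TPM against 16.5 to 39.9 TPM. Below every control on that scale were 7 tumors. The log2 fold change of Trbv16 was 1.77 (SE 0.92, edgeR adjusted p = 0.352). The direction depended on the scaling. It was -0.32 with library totals, where the median of all genes was -1.83, and 1.26 with RLE factors, where that median was -0.72. It was thus 2.22, 1.51 and 1.98 above the median of all genes with TMM factors, library totals and RLE factors. On log2(TPM + 1) by limma the change was -1.45 and its difference to the median of all genes -0.31.

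Trbv13-2 averaged 5.57 ± 7.57 CPM in the tumors (SD, n = 9) and 0.296 ± 0.171 CPM in the controls (SD, n = 3), a log2 fold change of 4.20 (SE 1.74, edgeR adjusted p = 0.189). Trbv19 averaged 5.83 ± 16.9 CPM in the tumors (SD, n = 9) and 0.273 ± 0.124 CPM in the controls (SD, n = 3), with 50.8 CPM in tumor 4 and at most 0.604 CPM in the 8 other tumors (log2 fold change 4.36, edgeR adjusted p = 0.374).

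Without tumors 7-9, edgeR called 2 of 18 tested segments higher, Trbv13-2 at 4.38 (adjusted p = 0.0482) and Trbv16 at 2.03 (adjusted p = 0.0350). It called 3 lower, Trbv26 at -4.02 (adjusted p = 0.00586), Trbv29 at -3.36 (adjusted p = 0.0232) and the pseudogene Trbv24 at -2.76 (adjusted p = 0.0281). In that fit 19.6% of all tested genes were called higher and 20.3% lower, with a median of -1.29 over all genes. The 3 lower segments had 0 to 2 counts in tumors 1-6 and 6 to 10 in the controls, so they passed the filter on low counts through the controls alone, and the receptor gene density was also higher in the controls. Tumors 7-9 were set apart with the T cell marker and background levels known. The calls of the 2 higher and the 3 lower segments are therefore given as values and support nothing further. In tumors 7-9 against the controls, 8 segments were tested and none was called, where 0.0247% of all tested genes were called higher and 0.0247% lower. At an unadjusted p below 0.05 there was 1 of these segments, Trbv13-2, beside 3294 of all 36449 tested genes. Trbv16 was there at -0.68 (SE 0.33, edgeR adjusted p = 0.594).

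The constant genes of the beta chain, themselves among the 10 T cell markers, were high in tumors 1-6. Trbc2, a constant gene, was at 170 to 413 CPM in tumors 1-6 and 4.12 to 7.79 CPM in tumors 7-9, against 4.95 to 8.06 CPM in the controls. Trbc1, the other one, was at 158 to 310 CPM in tumors 1-6 and 1.17 to 7.36 CPM in tumors 7-9, against 1.13 to 14.8 CPM in the controls, where control 1 was the highest. The constant genes, the tested Trbj segments and the CD3 chains had adjusted p of 0.129 to 0.162 by edgeR over all libraries, so none passed. Trac, the alpha constant gene, was at 2.42 (adjusted p = 0.175) and Ptcra, the surrogate alpha chain of immature thymocytes, at 0.17 (adjusted p = 0.865) in log2 fold change by edgeR. Without tumors 7-9, Trbc2 was at 5.34 (edgeR adjusted p = 1.99e-05), where it was at 5.05 over all libraries. Trbc1 was then at 5.11 (edgeR adjusted p = 0.000590), where it was at 4.73 over all libraries. In that fit 19.6% of all genes were called higher. The constant genes, Trac, the 6 tested Trbj segments and the CD3 chains were all among them, with edgeR adjusted p of at most 0.00765. Ptcra was not (edgeR adjusted p = 0.891). The constant genes, Trac and the CD3 chains are among the T cell markers whose values were known when tumors 7-9 were set apart. Their calls in that fit are therefore given as values and support nothing further. On the TPM scale, which corrects for length, the summed Trbv segments were at 5.28 to 26.8 for each 100 TPM of the constant genes in tumors 1-6. They were at 135 to 543 in tumors 7-9, against 107 to 549 in the controls. Both D segments were at 0 counts in every library.

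Among tumors 1-6, tumor 4 had the fewest counts on joining segments. All 14 Trbj genes together had 473, 369, 425, 57, 852, 1555, 3, 17 and 26 counts in tumors 1 to 9, against 30, 18 and 7 in controls 1 to 3. Trbj1-1 and Trbj1-2, a pair chosen after their values were seen, held 291, 218, 207, 607 and 773 of them in tumors 1, 2, 3, 5 and 6, but 2 in tumor 4 and 0 to 5 in tumors 7-9, against 14, 2 and 1 in the controls. Joining segments are shorter than the 75-base reads, so these counts are not compared with Trbv counts per length. The counts do not show which joining segment was joined to which variable segment.

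**Figure D5:**
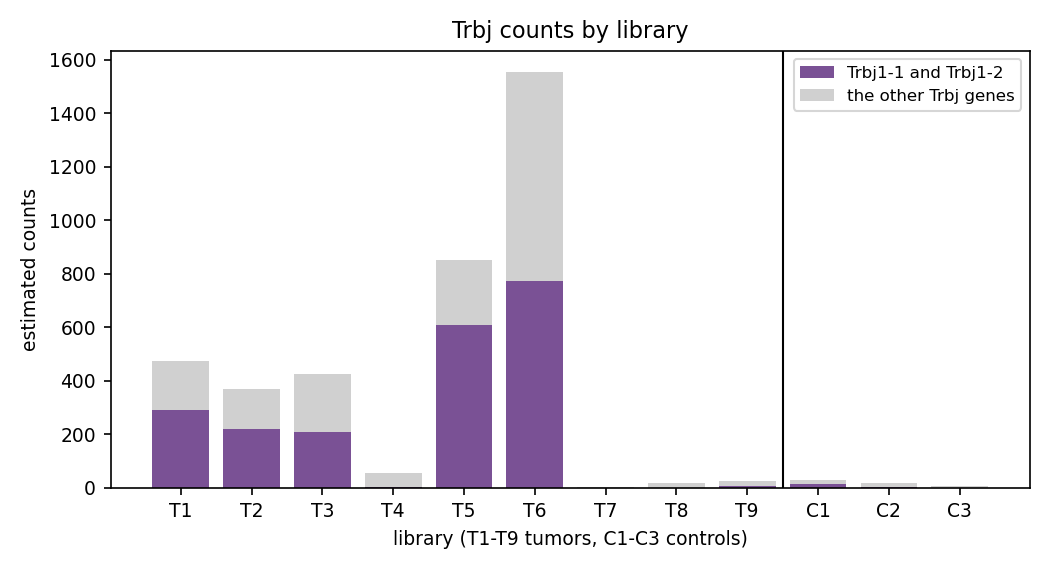
Estimated counts on the 14 Trbj genes (vertical axis) in each library (horizontal axis, T for tumors and C for controls), with Trbj1-1 and Trbj1-2 in color and the others in gray. Tumors 1, 2, 3, 5 and 6 hold 207 to 773 counts on this pair, tumor 4 holds 2 and the controls 1 to 14.

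On the alpha chain, the 15 genes of the Trav6 family, the V alpha 4 partner of the F5 receptor, took 45.7%, 41.2%, 38.3%, 23.4%, 70.4%, 81.6%, 21.6%, 46.3% and 18.3% of the counts on 128 Trav genes in tumors 1 to 9, against 41.0%, 29.9% and 32.7% in controls 1 to 3. Among tumors 1-6 the family's share was lowest in tumor 4. For Trav6-1 alone, the largest Trav gene in 11 of the 12 libraries, it was lowest in tumor 3, with 15.9% in tumor 3 and 18.2% in tumor 4. Tumor 3 had Trav7d-2 as its largest Trav gene, at 39.0% of the Trav counts. Background on the Trav genes and words shared between them were not examined, so these shares are given as values only.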

How the data were processed

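For each of the 12 libraries the authors deposited kallisto estimated counts per transcript with effective lengths, per the file headers. The deposited files also hold TPM values, scaled by the authors to a common sum, per the file headers. The deposited effective lengths are in bases. FastQC, kallisto and mm10 are named in the submitters' processing notes. The sources used here give neither versions nor the index.

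Estimated counts were summed per gene over 128622 transcripts, 41 of them of Trbv genes, and rounded to whole numbers for edgeR 4.0.16 (TMM factors, filterByExpr by group, quasi-likelihood test, adjusted p below 0.05), checked on simulated data. DESeq2 1.42.0 and limma 3.58.1 on log2(TPM + 1) were alternatives. Coordinates came from GENCODE M21. Words of 31 bases were taken from its transcripts. Shares used unrounded counts. No 2 libraries of a group agreed within sampling noise (chi-square per gene at least 3.29, over genes with 20 or more counts over the pair). Controls 2 and 3 were the closest pair, at 3.29. The other pairs of controls were at 31.4 and 33.8, and the closest pair of tumors, 8 and 9, at 45.7.

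Segments were named if they took 10% of the Trbv counts or were the largest in any library, or were called by edgeR over all libraries. Partner genes (Trbc, Trbd, Trbj, Trac, Ptcra, the CD3 chains and the Trav6 family) were listed whatever their values. Other segments are named for a limit, a call or a value seen in the data. The members, lists and tests were chosen with earlier results of these data known. One list of cell type markers is not reported here.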

Additional observations from a re-analysis of the deposited data

Results flagged for a closer look

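Among the 11 measures examined over the 9 tumors, 3 had a tumor whose gap to the next was large against the whole range. For normally distributed values, chance gives such a gap in about 1 of 20 groups. Whether these shares and CPM values are so distributed was not tested, so that rate may not hold for them. Trbv13-2 took 50.04% of the Trbv counts in tumor 1, and the next tumor was at 24.9%. Trbv19 took 62.4% in tumor 4, and the next tumor was at 5.09%. Trbv16 was at 37.9 CPM in tumor 6, and the next tumor was at 16.1 CPM. Tumor 6 also had the most Trbv counts, 973, and the share of Trbv16 there was 61.2%.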

How the results depend on the processing

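Trbv16's share was not called under any alternative that could reach the threshold, which tumors 7 to 9 alone and the 3 pairs of the block could not. Its difference to the controls was 9.60 (without tumor 5) to 20.9 percentage points with 1 library left out, 17.4 with TPM, 11.1 without pseudogenes and -7.90 for tumors 7 to 9 alone. Its ratio to the median of the other functional segments was 4.89 to 5.70 on the log2 scale with 1 tumor left out and 2.92 in tumors 7 to 9 alone, where 3 libraries cannot reach the threshold (exact permutation p = 0.25). Its edgeR log2 fold change was 1.21 to 1.92 with 1 library left out, 2.03 without tumors 7 to 9 (called), -0.68 for tumors 7 to 9, -0.32 with library totals and -1.45 by limma on log2(TPM + 1), where the median of all genes was -1.14.

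Trbv genes called numbered 0 with any 1 library left out, 1 by DESeq2, 15 by limma (all lower, where 79.3% of all genes were called lower) and 5 without tumors 7 to 9. All genes called numbered 0 to 3 with 1 library left out (0 without control 2 or 3 or tumor 1, 2, 4 or 7), 4251 by DESeq2, 32247 by limma, 15385 without tumors 7 to 9 and 18 for tumors 7 to 9, against 2 over all libraries. The cause of these changes was not tested.

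Controls and tumors share only their numbers. Only tumors 1 to 3 have a number in common with a control. With the number as a replicate block, the other tumors therefore add nothing to the difference between the groups. In that fit Trbv16 was at 2.03 (edgeR adjusted p = 1.74e-05), and 2 Trbv genes (Trbv16 and Trbv13-2) and 10699 genes in all were called. These values thus compare tumors 1 to 3 with the 3 controls and do not stand for all tumors. The share of Trbv16 differed by 30.3 percentage points over tumors 1 to 3 and their 3 controls (exact permutation p = 0.25, the smallest possible). Deviations of same-numbered libraries from their group means correlated by 0.0656, 0.0841 and -0.0939. Depth limits single segments: 1 count is up to 0.781% of a library's Trbv counts.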
